A study of Mus musculus with 12 samples.

Results

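CD8+ T cells from Panc02 tumours that stained positive for asialo-GM1 (asGM1) were compared with those that did not, in tumours given the isotype control antibody. Panc02 is a mouse pancreatic tumour line, and all tissue came from wild type C57BL/6J animals. Both populations were sorted as live (DAPI-), CD45.2+ and CD8+ cells and differed in the asGM1 gate alone, and the labels name no gate on CD3 or the T cell receptor. Each population had 3 libraries, so 6 of the 12 libraries of the study enter the comparison. The other 6 are the same populations from tumours given anti-PD-1, an antibody against the inhibitory receptor PD-1. They served to estimate the spread between libraries and are set beside the isotype values at the end. All genes that passed the expression filter were compared, 18657 of the 56941 in the table. The libraries are called negative library 1 to 3 and positive library 1 to 3, after the asGM1 gate and the replicate number. Separate mice were not stated for the replicates, so a p-value here reflects only how far the libraries vary, and that variation may be technical.

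asGM1 is a neutral glycosphingolipid of the outer cell membrane, and antibodies against it have long been used to deplete mouse NK cells. Some activated CD8+ T cells carry it too. It is a lipid with a sugar chain, so no single gene reads out the gate. Naive and memory T cells keep a quiescent programme under transcription factors such as TCF1 and BACH2 and travel between blood and lymph nodes with receptors such as CCR7 and S1PR1. Antigen stimulation in a tumour lowers that programme and raises granzymes and inhibitory receptors.

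Both populations carried the RNA of CD8+ T cells. Cd8a, a chain of the sorted co-receptor, was at 2166, 2046 and 2121 CPM in the negative libraries and 2581, 2421 and 2207 CPM in the positive ones (values in CPM, counts scaled to library size with edgeR's TMM factors). The groups did not overlap, and the difference of 0.19 ± 0.09 on the log2 scale did not pass (edgeR adjusted p = 0.433). Cd8b1, Cd3e and Trac overlapped between the groups. Of 30 genes of T cell identity and proximal receptor signalling, 0 passed in either direction, with a median log2 difference of 0.08. With the replicate pair as a block, 1 passed, the co-stimulatory receptor gene Cd28, at lower level (adjusted p = 0.0350).

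The 6 libraries held 58.1 to 73.2 M counts. A count of 0 allows a true level of up to 0.0406 to 0.0516 CPM (3 counts, 95% confidence, counting error only). Mitochondrially encoded RNA was 0.487 to 0.782% of counts in the negative and 0.309 to 0.478% in the positive libraries. Genes with a count numbered 22459 to 22611 in the negative and 20836 to 21787 in the positive libraries. The part of these differences in the results was not tested.

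Between the populations 244 genes passed at an adjusted p under 0.05 (1.31% of those tested), 68 higher (0.364%) and 176 lower (0.943%) in asGM1-positive cells. At least 2-fold differences were seen in 43 of the higher and 141 of the lower genes. The median log2 difference over all tested genes was -0.00. In all 244 the groups did not overlap, which was so for 16.3% of all tested genes. Among the lower genes, 34 had 0 counts in every positive library, and 24 averaged under 1 CPM in the negative libraries. With the replicate pair as a block 736 genes passed (3.94%), 342 higher (1.83%) and 394 lower (2.11%). These included 226 of the 244. Leaving out 1 isotype library lowered the count to between 75 and 160, and 62 genes (0.332%) passed in the full set and in each of the 6 fits with an isotype library left out. These 62, called stable genes here, were 13 higher and 49 lower, and all 62 passed with the block.

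Receptors that guide T cells between blood and lymph nodes were lower in asGM1-positive cells. S1pr1, the receptor for sphingosine 1-phosphate that draws T cells out of tissues, was at 16.9, 11.4 and 25.1 CPM in the negative and 1.29, 1.92 and 1.94 CPM in the positive libraries. Every positive library lay far under the lowest negative one (log2 difference -3.37 ± 0.33, SE, edgeR adjusted p = 0.00112). Ccr7, the chemokine receptor for entry into lymph node T cell zones, was at 68.3, 72.8 and 105 CPM against 9.89, 12.3 and 23.9 CPM (-2.42 ± 0.31, adjusted p = 0.00422). Both belonged to the stable genes.

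Of 24 measured recirculation and homing receptors, 6 fell, 0 rose and 18 did not pass, with a median log2 difference of -0.92. Among the others that fell were Ccr9, the gut homing receptor, Gpr18, a lipid receptor, and Cxcr4, the receptor for CXCL12. Ccr9 was at 26.6, 17.7 and 22.6 CPM in the negative libraries and at 0, 0.819 and 0 CPM in the positive ones. Its call ended without negative library 1 (adjusted p = 0.0610) and with only the 6 isotype libraries in the fit (0.0804). Gpr18 fell by 0.56 on the log2 scale (adjusted p = 0.0283), a call that ended without negative library 1 or 3 or any 1 of the positive libraries (0.0536 to 0.122). Cxcr4 fell by 1.26 (adjusted p = 0.0382), a call that ended without any 1 of the 6 isotype libraries (0.0567 to 0.128) or without anti-PD-1 negative library 1, 2 or 3 or anti-PD-1 positive library 2 (0.0531 to 0.0637). Cx3cr1, the fractalkine receptor, was at 85.1, 63.7 and 111 CPM against 51.7, 28.2 and 46.6 CPM (adjusted p = 0.10005). It passed with the block (0.0145). Ccr9 is also made by plasmacytoid dendritic cells, whose markers were lower in the same libraries. In bulk RNA, fewer cells of a type and less RNA per cell cannot be told apart.

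Transcription factors of naive and quiescent T cells were lower too. Of 15 measured, 6 fell, 0 rose and 9 did not pass, with a median log2 difference of -0.73. Id3, a repressor of E proteins that marks memory precursors, was at 8.44, 6.42 and 9.30 CPM against 1.497, 1.638 and 1.86 CPM (-2.27 ± 0.34, adjusted p = 0.00901). Satb1, a chromatin organiser of thymocytes and naive T cells, was at 104, 116 and 129 CPM against 64.3, 67.6 and 78.9 CPM. That was a smaller step with little spread (-0.73 ± 0.11, adjusted p = 0.00841). Id3 and Satb1 were stable genes, though the call of Satb1 ended with only the 6 isotype libraries in the fit (0.0584).

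The calls of the other quiescence factors that fell were less stable, and each ended without some isotype libraries. Tcf7, which encodes TCF1, was at 72.2, 47.1 and 90.4 CPM against 10.8, 5.28 and 15.4 CPM (-2.74 ± 0.48, adjusted p = 0.0176). The groups lay well apart, and the call ended without negative library 1 or 3 or positive library 1 or 2 (0.0526 to 0.0639). Bach2, a repressor that holds back effector genes, was at 21.1, 20.6 and 22.3 CPM against 6.21, 2.64 and 8.95 CPM (-1.85 ± 0.35, adjusted p = 0.0283). Its call ended without any 1 of the negative libraries or positive library 1 (0.0671 to 0.0854), and with only the 6 isotype libraries (0.102). Lef1, the partner of TCF1, had a log2 difference of -0.85 (adjusted p = 0.0457), and that of Foxo1, which drives Il7r and Klf2, was -0.64 (adjusted p = 0.0439). The call of Lef1 ended without negative library 1 or 3 or positive library 1 or 2 (0.120 to 0.136) or any 1 anti-PD-1 library (0.0616 to 0.0747). It also ended under limma voom (0.0586). That of Foxo1 ended without negative library 1, 2 or 3 or positive library 1 or 2 (0.0792 to 0.132) or any 1 anti-PD-1 library (0.0536 to 0.0702). Klf2, a factor that controls S1pr1, was at 16.7, 13.6 and 16.4 CPM against 7.02, 8.15 and 8.64 CPM. It did not pass (adjusted p = 0.314) and passed with the block (0.0100).

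**Figure D1:**
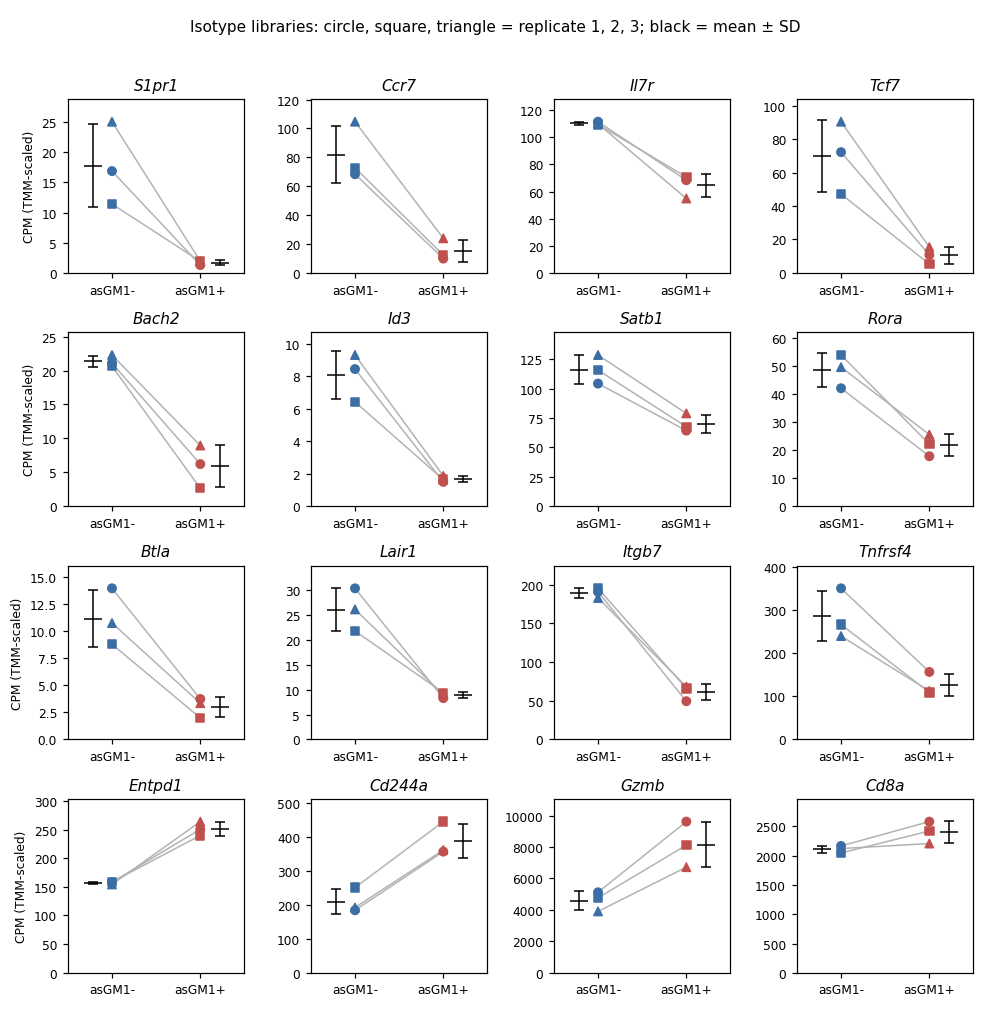
Levels of 16 genes in the 6 isotype libraries, in CPM on linear axes that start at 0, with asGM1-negative libraries in blue and asGM1-positive libraries in red. Grey lines join libraries of the same replicate number and the black bars are the mean and SD of 3 libraries. S1pr1 is at 11.4 CPM or more in every negative and at 1.94 CPM or less in every positive library, while Entpd1, Cd244a and Gzmb are higher in the positive libraries and Cd8a differs little.

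Inhibitory receptors changed in both directions. Of 21 measured inhibitory receptors and ectoenzymes, 2 rose, 4 fell and 15 did not pass, with a median log2 difference of -0.03. Entpd1, the ATP-degrading ectoenzyme CD39 of chronically stimulated T cells, was at 158, 158 and 154 CPM in the negative and 250, 240 and 264 CPM in the positive libraries. The spread within each group was small beside the gap (0.68 ± 0.09, adjusted p = 0.00422). Cd244a, the SLAM family receptor 2B4 of NK and stimulated CD8+ T cells, was at 184, 250 and 192 CPM against 356, 444 and 360 CPM (0.89 ± 0.13, adjusted p = 0.00705). Both were stable genes. The call of Cd244a ended with only the 6 isotype libraries (0.0706).

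The inhibitory receptors that fell were Btla, Lair1, Cd160 and Slamf6. Btla, a receptor for HVEM, was at 13.9, 8.78 and 10.7 CPM against 3.73, 1.99 and 3.35 CPM (-1.88 ± 0.28, adjusted p = 0.00901). Lair1, a collagen receptor, was at 30.4, 21.9 and 26.2 CPM against 8.33, 9.41 and 9.03 CPM (-1.55 ± 0.18, adjusted p = 0.00291). Neither overlapped between the groups, which held for all 244 genes that passed and 16.3% of all tested genes. Both were stable genes, and the call of Btla ended with only the 6 isotype libraries (0.0526). Cd160, another HVEM receptor, was at 205, 160 and 232 CPM against 92.9, 80.2 and 108 CPM (-1.08 ± 0.17, adjusted p = 0.0125), and its call ended without negative library 1 (0.0533). Slamf6, a marker of TCF1-positive exhausted cells, was at 34.6, 32.6 and 44.3 CPM against 8.67, 6.28 and 18.2 CPM (-1.75 ± 0.34, adjusted p = 0.0322). The call of Slamf6 ended without any 1 of the negative libraries or positive library 1 or 2 (0.0614 to 0.106), or without anti-PD-1 negative library 3 (0.0525). Lair1 was also counted among the plasmacytoid dendritic cell genes.

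The receptors most often used to describe exhaustion did not pass without the block. Pdcd1, the PD-1 gene, was at 1260, 1633 and 1569 CPM against 1753, 2047 and 1783 CPM, without overlap, and did not pass (0.32, adjusted p = 0.216). It passed with the block (0.0355). Havcr2, which encodes TIM-3, was at 403, 419 and 499 CPM against 544, 547 and 597 CPM but missed the threshold with or without the block (adjusted p = 0.0895 and 0.229). Lag3, Tigit and Tox, a factor that sustains exhaustion, overlapped between the groups and did not pass (log2 differences of -0.12 for Lag3 and 0.06 for Tigit). Klrg1, a receptor of terminally differentiated effector cells, was at 1.504, 3.58 and 2.34 CPM against 2.92, 7.94 and 4.55 CPM. The groups overlapped, and it passed with the block alone (adjusted p = 0.00599).

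Among 36 measured effector and exhaustion transcription factors, 0 rose, 2 fell and 34 did not pass. Rora, a nuclear receptor of innate-like and memory T cells, was at 42.0, 53.9 and 49.6 CPM against 17.8, 22.1 and 25.5 CPM and was a stable gene (-1.15 ± 0.17, adjusted p = 0.00928). Runx2, expressed by memory T cells and plasmacytoid dendritic cells, fell by 0.62 on the log2 scale (adjusted p = 0.0311). The call of Runx2 ended without negative library 1 or 2 or any 1 of the positive libraries (0.0509 to 0.104). With the block 2 of these factors rose and 6 fell. Those that rose were Zfp683, the residency factor HOBIT (adjusted p = 0.00645), and Ikzf3 (0.0494).

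Gzmb, which encodes the protease granzyme B of cytotoxic granules, was higher in asGM1-positive cells. It was at 5121, 4765 and 3905 CPM in the negative and 9616, 8119 and 6718 CPM in the positive libraries, so that the lowest positive library lay above the highest negative one (0.83 ± 0.15, adjusted p = 0.0206). The call ended without any 1 of the negative libraries or positive library 1 or 2 (0.0534 to 0.0803), and with only the 6 isotype libraries (0.0962). Serpinb6b, a serine protease inhibitor of cytotoxic lymphocytes, went the other way, at 128, 114 and 112 CPM against 55.6, 78.2 and 54.4 CPM (-0.91 ± 0.15, adjusted p = 0.0144). It did not pass without negative library 1 or positive library 1 (0.0624 and 0.0560). Of 24 cytotoxic granule genes, 1 rose, 1 fell and 22 did not pass, with a median log2 difference of 0.17.

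With the block 4 granule genes rose and 2 fell, among them Gzma (adjusted p = 0.0338) and Gzmm, which was lower (0.0497). Gzmk, a granzyme of memory-like cells, was at 39.99, 30.9 and 32.7 CPM against 63.2, 83.3 and 46.5 CPM (adjusted p = 0.123). Prf1, the pore-forming protein perforin, overlapped between the groups at 794 to 1232 CPM and 859 to 1508 CPM. Ifng, the cytokine interferon-gamma, was at 386, 255 and 333 CPM against 359, 240 and 254 CPM, also with overlap.

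Of 26 effector cytokines and chemokines, 0 rose, 1 fell and 25 did not pass, with a median log2 difference of -0.29. The gene that fell was Tnfsf11, which encodes the TNF family ligand RANKL. It was at 42.5, 46.0 and 47.6 CPM against 22.8, 19.8 and 22.3 CPM (-1.07 ± 0.21, adjusted p = 0.0327), and the call ended without any 1 of the 6 isotype libraries (0.0789 to 0.0961). With the block 7 fell and 1 rose. The lower ones included Csf2, the gene of GM-CSF (adjusted p = 0.00695), and Cd40lg, the CD40 ligand (0.0138). The higher one was Spp1, the gene of osteopontin (0.00458). Spp1 was at 210, 87.0 and 106 CPM against 306, 141 and 196 CPM, with overlap between the groups.

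Tnfrsf4, which encodes the co-stimulatory receptor OX40, was lower in asGM1-positive cells. It was at 351, 267 and 240 CPM against 157, 110 and 113 CPM (-1.18 ± 0.21, adjusted p = 0.0217). The groups did not overlap, and the call ended without negative library 1 or 2 or positive library 2 or 3 (0.0541 to 0.0955). It was the only one of 16 measured TNF receptor family co-stimulators to pass, and with the block 2 rose and 6 fell. Tnfrsf9, the receptor 4-1BB, was among the higher ones with the block (adjusted p = 0.0206).

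Il7r, the receptor for the survival cytokine interleukin-7, was at 112, 110 and 110 CPM against 68.3, 70.7 and 54.9 CPM. It fell by 0.77 (log2, adjusted p = 0.0148), and the call ended without negative library 1 (0.0589). Il18rap, the accessory chain for interleukin-18, was at 308, 320 and 345 CPM against 249, 217 and 233 CPM (adjusted p = 0.0269), and ended without any 1 of the negative libraries or positive library 2 or 3 (0.0603 to 0.0858) or anti-PD-1 negative library 3 (0.0523). These 2 were the only ones of 26 cytokine receptor chains to pass. With the block 2 chains rose as well, Il2rb (adjusted p = 0.0238) and Il12rb1 (0.0252).

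Integrin chains changed in both directions. Itgb7, which pairs with alpha 4 or alpha E in gut homing and epithelial binding, was at 191, 195 and 183 CPM against 49.5, 66.0 and 68.4 CPM (-1.63 ± 0.29, adjusted p = 0.0206). The gap was wide, yet the call ended without any 1 of the 6 isotype libraries (0.0539 to 0.0787). Itgb3, a chain of the vitronectin receptor, fell by 1.03 (log2, adjusted p = 0.0151), and its call ended without negative library 1 or 2 (0.0635 and 0.0541). Itgb5, another partner of alpha V, rose by 1.59 (adjusted p = 0.0365), and its call ended without any 1 of the 6 isotype libraries (0.05004 to 0.126), or without either library of anti-PD-1 replicate 2 (0.0585 and 0.0551).

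Of 27 integrin and adhesion genes these were the 3 that passed. Itgae, the alpha E chain CD103, was at 72.8, 102 and 66.3 CPM against 37.1, 44.9 and 31.0 CPM (adjusted p = 0.0694). Itga1, the collagen receptor chain CD49a, was at 121, 177 and 142 CPM against 176, 237 and 210 CPM (adjusted p = 0.153). Both passed with the block, Itgae lower (0.0425) and Itga1 higher (0.0241).

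Markers of plasmacytoid dendritic cells, the main source of type I interferon in viral infection, were lower in the asGM1-positive libraries. Siglech, a lectin that defines these cells in mice, was at 71.3, 46.2 and 58.2 CPM in the negative libraries and at 0, 0.236 and 0 CPM in the positive ones (-9.39 ± 0.95, adjusted p = 0.00112). Spib, a transcription factor they need, was at 8.28, 3.85 and 5.15 CPM and had no count in any positive library (adjusted p = 0.00112). Against 3 counts per library its log2 difference was -6.96 or lower. Ly6d was at 42.7, 17.8 and 25.5 CPM against 0, 0.180 and 0.382 CPM (-7.21 ± 0.89, adjusted p = 0.00421). All 3 were stable genes and near 0 in the positive libraries.

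Of 19 measured plasmacytoid dendritic cell genes 14 fell and 0 rose, with a median log2 difference of -4.61, or -3.98 with genes without counts set at their bound. Between 7 and 13 passed with 1 isotype library left out. The 7 stable ones also included Cd300c, Smim5, Lair1 and the ribonuclease gene Rnase6. The summed level of the whole list was 950 to 1209 CPM in the negative and 768 to 821 CPM in the positive libraries. Of the members that T cells also express, some overlapped between the groups and others, such as Runx2 and Lair1, did not. Irf8, a transcription factor of both lineages, was at 585.5, 495.4 and 648.5 CPM against 567.1, 542.0 and 603.2 CPM. Bst2, an interferon-induced surface protein, overlapped as well. Further stable genes, in no list, were Pld4, Kmo, Ctsl, Cybb, which encodes the phagocyte oxidase subunit gp91phox, Nucb2, a calcium-binding protein gene, and Lad1, an anchoring filament protein gene. Their log2 differences ran from -3.44 to -2.02. Pld4, an endolysosomal exonuclease gene of dendritic and B cells, was at 78.8, 48.3 and 61.9 CPM against 12.7, 9.91 and 11.5 CPM and had the smallest adjusted p of all genes tested (0.000811). Kmo, an enzyme of the kynurenine pathway, was at 11.7, 6.32 and 10.5 CPM against 1.34, 0.736 and 0.565 CPM. The calls of Lad1 and the cathepsin gene Ctsl ended with only the 6 isotype libraries (0.0513 and 0.0737). The part of these cells in the falls of T cell genes was not tested.

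Foxp3, the master transcription factor of regulatory T cells, was at 41.9, 28.5 and 16.6 CPM in the negative and 1.91, 3.43 and 4.32 CPM in the positive libraries (-3.17 ± 0.46, adjusted p = 0.00741). It was a stable gene. Cd4 was at 9.42, 11.2 and 12.6 CPM against 1.20, 2.62 and 5.41 CPM, without overlap, and passed with the block alone (adjusted p = 0.0764 and 0.0139). Of 9 CD4 and regulatory T cell markers, Foxp3 and Tnfrsf4 fell and 7 did not pass, and the list summed to 826 to 1119 CPM against 602 to 877 CPM. Il2ra and Ctla4, which regulatory and activated CD8+ T cells share, overlapped between the groups.

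B cell and plasma cell markers were partly lower, 3 of 10 measured, with sums of 222 to 241 CPM against 143 to 188 CPM. Mzb1, a chaperone of immunoglobulin assembly, was at 4.37, 2.43 and 3.18 CPM against 0, 0.125 and 0 CPM (adjusted p = 0.0176), Fcrla at 11.02, 7.62 and 10.5 CPM against 0, 0.514 and 0 CPM (0.0421), and Cd79b at 6.81, 6.04 and 7.01 CPM against 2.05, 2.86 and 2.25 CPM (0.0346). Mzb1 and Fcrla are known from plasmacytoid dendritic cells too. Each of these calls ended without some isotype library, Mzb1 without negative library 1 or 3 (0.0553 to 0.0676), Fcrla without any but positive library 2 (0.0643 to 0.130) and Cd79b without any 1 of the 6 (0.0543 to 0.113). Leaving out any 1 anti-PD-1 negative library also ended the call of Fcrla (0.0697 to 0.0740), and leaving out anti-PD-1 negative library 3 or positive library 2 that of Cd79b (0.0539 and 0.0520). Ms4a1, which encodes the B cell antigen CD20, had no count in any of the 6 libraries. Of 13 conventional dendritic cell markers, Flt3 and Zbtb46 fell and 11 did not pass, and the list summed to 44.5 to 54.5 CPM against 20.3 to 22.3 CPM. Both calls were fragile, ending without any but positive library 3 for Flt3 (0.0503 to 0.126) and without any 1 of the 6 for Zbtb46 (0.0806 to 0.135). That of Flt3 also ended without any 1 anti-PD-1 negative library or positive library 3 (0.0547 to 0.0721), and that of Zbtb46 without anti-PD-1 negative library 1 or any 1 positive library (0.0501 to 0.0604).

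Macrophage genes went the other way. Apoe, a lipoprotein gene of macrophages, was at 14.1, 13.5 and 17.5 CPM in the negative and 80.5, 95.7 and 65.2 CPM in the positive libraries (2.42 ± 0.24, adjusted p = 0.00112). C1qb, C1qc and C1qa encode the chains of complement C1q and lie next to each other. C1qb was at 5.89, 7.81 and 9.60 CPM against 41.4, 43.3 and 26.4 CPM, and the adjusted p of the 3 genes ran from 0.00353 to 0.00421. C1qc was at 4.72, 4.89 and 5.84 CPM against 24.5, 27.2 and 19.4 CPM, and C1qa at 4.70, 5.03 and 4.22 CPM against 19.8, 22.9 and 15.2 CPM. All 4 genes were stable. None overlapped between the groups, which held for all 244 genes that passed and 16.3% of all tested genes.

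The bases before the start sites of C1qb and C1qc are shown because these neighbours rose together. Each run is the 250 bases upstream of the RefSeq start in build GRCm38.p6, 5′ to 3′ on the gene's minus strand, at chr4:136886201-136886450 for C1qb and chr4:136892915-136893164 for C1qc. Capitals mark GAGGAA, the core bound by the myeloid factor PU.1, or its reverse complement TTCCTC. C1qa is not printed.
C1qb: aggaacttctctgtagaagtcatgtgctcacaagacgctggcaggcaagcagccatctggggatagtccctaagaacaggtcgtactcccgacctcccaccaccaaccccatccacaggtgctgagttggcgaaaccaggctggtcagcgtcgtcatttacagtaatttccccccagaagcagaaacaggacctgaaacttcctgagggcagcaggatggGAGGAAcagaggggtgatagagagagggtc
C1qc: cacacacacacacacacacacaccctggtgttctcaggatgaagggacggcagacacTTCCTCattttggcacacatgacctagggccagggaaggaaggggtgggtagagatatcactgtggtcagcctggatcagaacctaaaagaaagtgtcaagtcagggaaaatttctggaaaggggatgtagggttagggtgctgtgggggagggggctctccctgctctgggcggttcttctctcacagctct
Each held 1 match, searched on both strands, and 23.25% of 32851 promoters of the same length held at least 1. A match is a description of the letters and not a bound site.

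Of 19 measured macrophage and monocyte markers 10 rose and 0 fell, with a median log2 difference of 1.98 and sums of 337 to 357 CPM against 485 to 621 CPM. Between 4 and 9 passed with 1 isotype library left out. Lyz2, the lysozyme of myeloid cells, was at 17.02, 14.7 and 15.01 CPM against 90.8, 64.9 and 48.7 CPM (adjusted p = 0.0148). Its call ended without any 1 of the negative libraries (0.0614 to 0.0640). Csf1r, the growth factor receptor of macrophages, was at 1.11, 3.07 and 3.93 CPM against 11.3, 12.9 and 14.8 CPM (adjusted p = 0.0435), a call that ended without any 1 of the 6 isotype libraries (0.0679 to 0.121) or of the anti-PD-1 libraries other than negative library 3 (0.0512 to 0.0633). Ctss and Ccr2, which T cells also express, overlapped, and Mrc1, a gene of tissue macrophages, had no count in 4 of the 6 libraries.

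A further 4 stable genes outside the list were higher. Tgm2, a transglutaminase of macrophages, was at 4.08, 3.62 and 5.01 CPM against 33.9, 15.5 and 14.2 CPM (2.32 ± 0.34, adjusted p = 0.00741). Cxcl16, a chemokine that binds CXCR6, was at 2.33, 4.06 and 5.36 CPM against 15.4, 17.3 and 15.1 CPM (2.02 ± 0.31, adjusted p = 0.0104). Gatm, the first enzyme of creatine synthesis, rose by 1.89 on the log2 scale and Epdr1 by 1.61. The call of Epdr1 ended with only the 6 isotype libraries (0.0567). The part of macrophage RNA in the rises of Gzmb, Entpd1 and Cd244a, and of Spp1 with the block, was not tested.

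**Figure D2:**
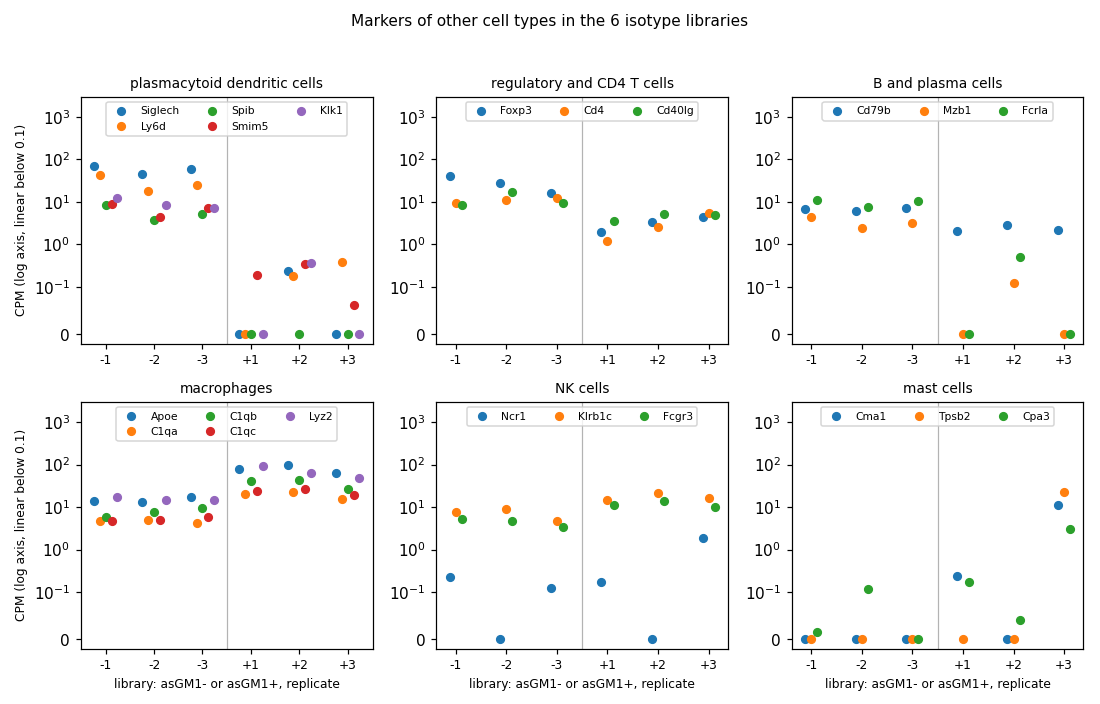
Levels of markers of other cell types in the 6 isotype libraries, in CPM on a log axis that is linear below 0.1; the horizontal axis gives the asGM1 gate and the replicate number, and points of a library are spread sideways. Siglech lies at 46.2 to 71.3 CPM in the negative and at 0.236 CPM or less in the positive libraries, Apoe at 13.5 to 17.5 CPM and 65.2 to 95.7 CPM, and Tpsb2 has counts in positive library 3 alone.

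NK cell markers did not pass without the block. Of 10 measured, 0 passed, 6 were above 0 and 4 below, with a median log2 difference of 0.08. The sums were 1490 to 1696 CPM against 1581 to 1899 CPM. The sums include Gzma, also counted above as a granule gene, and are therefore not a measure of NK cells alone. Gzma was at 88.6 to 207 CPM against 157 to 344 CPM. Klrb1c was at 4.82 to 9.16 CPM against 14.8 to 22.1 CPM, and Fcgr3 at 3.45 to 5.15 CPM against 9.84 to 13.7 CPM. Ncr1, the receptor NKp46, was at 0.222, 0 and 0.122 CPM against 0.172, 0 and 1.85 CPM. With the block 3 rose, Klrb1c (adjusted p = 0.0200), Fcgr3 (0.0149) and Gzma (0.0338). Of 24 NK receptors and innate-like adaptors on T cells, Cd244a rose, Klra7 fell and 22 did not pass, and with the block 4 rose. Klra7, whose reads may be shared with its close relatives, was at 17.6, 11.7 and 13.3 CPM against 5.32, 3.43 and 2.20 CPM (adjusted p = 0.0333). Its call ended without negative library 1, 2 or 3 or positive library 2 or 3 (0.0589 to 0.126) and without any 1 of the anti-PD-1 negative libraries (0.0517 to 0.0552). Fcer1g, a signalling adaptor of NK cells, macrophages and innate-like T cells, was at 98.6, 114 and 55.4 CPM against 251, 302 and 213 CPM, without overlap (adjusted p = 0.0781, and 0.00633 with the block).

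Trgc2, a constant segment of the T cell receptor gamma locus, was at 127, 175 and 93.3 CPM against 291, 312 and 230 CPM (1.08 ± 0.23, adjusted p = 0.0446). The call ended without negative library 1 or 3 or any 1 of the positive libraries (0.0566 to 0.173), or without 5 of the 6 anti-PD-1 libraries, all but positive library 2 (0.0546 to 0.0729). Trgc4, another gamma constant segment, was at 6.62, 4.65 and 5.38 CPM against 5.01, 2.46 and 0.794 CPM, with overlap (adjusted p = 0.425). Trdc, the delta constant segment that defines gamma-delta T cells, was at 8.31, 1.27 and 1.54 CPM against 2.495, 0 and 0 CPM. Of 7 measured gamma-delta T cell and MAIT markers, 1 rose and 6 did not pass. Of the 7, 3 were above 0 and 4 below, with a median log2 difference of -1.01. Among 10 genes of MHC class II presentation 2 fell, H2-Oa and H2-Ob, which encode the chains of the peptide editor's inhibitor. H2-Oa was a stable gene, at 16.1, 14.99 and 12.99 CPM against 6.02, 6.54 and 6.58 CPM (-1.20 ± 0.15, adjusted p = 0.00421). H2-Ob averaged 1.30 CPM in the negative libraries (adjusted p = 0.0435), and its call ended without any 1 isotype library other than negative library 1 (0.0791 to 0.126), without any 1 anti-PD-1 library (0.0519 to 0.0694) and under limma voom (0.121). The presenting chain genes H2-Ab1 and H2-Aa did not pass, and H2-Ab1 passed higher with the block (adjusted p = 0.0279).

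Genes for the synthesis of asGM1 itself did not pass. B4galnt1 makes the GM2 series, including the precursor of asGM1, and B3galt4 adds the galactose that completes it. B4galnt1 was at 953, 1038 and 1356 CPM against 960, 903 and 1152 CPM, and B3galt4 at 15.3, 13.1 and 14.3 CPM against 13.1, 15.3 and 16.9 CPM. Both overlapped between the groups. Ugcg, which makes the first glucosylceramide, was at 283, 312 and 333 CPM against 346, 352 and 405 CPM (adjusted p = 0.345). St3gal5, which diverts the precursor lactosylceramide towards sialylated gangliosides, was at 3.12, 2.54 and 3.24 CPM against 4.82, 3.23 and 6.02 CPM (adjusted p = 0.375).

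Of 32 measured genes of glycosphingolipid synthesis and breakdown, 0 rose, 3 fell and 29 did not pass. St3gal2, which can add sialic acid to the terminal galactose of asGM1 and GM1, was at 9.83, 8.95 and 11.8 CPM against 5.99, 2.93 and 3.41 CPM (-1.31 ± 0.24, adjusted p = 0.0217). St3gal1, an enzyme of similar linkage that mainly acts on O-glycans, was at 14.3, 13.2 and 14.2 CPM against 6.09, 8.41 and 8.61 CPM (-0.85 ± 0.15, adjusted p = 0.0217). St6galnac3, which adds a further sialic acid to such chains, was at 11.9, 14.3 and 11.4 CPM against 6.37, 4.36 and 5.03 CPM (-1.26 ± 0.24, adjusted p = 0.0283). The groups did not overlap in any of the 3, which held for all 244 genes that passed and 16.3% of all tested genes. The call of St3gal2 ended without negative library 1 or 3 or positive library 2 or 3 (0.0578 to 0.0832), that of St3gal1 without any 1 negative library or positive library 1 (0.0548 to 0.0854), and that of St6galnac3 without any 1 isotype library other than positive library 1 (0.0622 to 0.0945). St6gal1, which sialylates N-glycans, was at 39.3, 52.0 and 61.2 CPM against 8.45, 16.9 and 19.5 CPM (adjusted p = 0.0813). With the block it passed lower (0.0101) and St3gal6 passed higher (0.00954).

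Several lists held no gene that passed without the block. They covered 33 mitosis genes, 36 DNA replication genes, 22 glycolysis genes, 26 genes of cholesterol synthesis and uptake, 34 interferon-stimulated genes, 32 intracellular brakes of receptor signalling, and 22 annexins, S100 proteins and galectins. The mitosis genes had a median log2 difference of 0.32, with 30 of 33 above 0, against 49.8% of all tested genes. Of the DNA replication genes 31 of 36 were above 0 (median 0.13). The same held for 17 of 22 annexins, S100 proteins and galectins (0.15) and 16 of 22 glycolysis genes (0.14). Intracellular brakes and interferon-stimulated genes had 16 of 32 and 17 of 34 above 0. With the block 11 mitosis genes rose, among them Prc1, which bundles spindle microtubules (adjusted p = 0.0101), and Anln, a cytokinesis scaffold (0.0193). Mki67, which marks cycling cells, was at 250, 273 and 229 CPM against 298, 259 and 167 CPM, with overlap. The cholesterol genes had a median of 0.23, with 24 of 26 above 0, and with the block Fdps, an enzyme of the mevalonate pathway, was among those that rose (adjusted p = 0.0169). Interferon-stimulated genes had a median of -0.00, and with the block 1 fell, Gbp2 (0.0334). Intracellular brakes had 3 higher genes and 1 lower gene with the block, Ptpn6 being among the higher ones (0.00308). Glycolysis had 2 higher ones, Gpi1 (0.0230) and Aldoc (0.00814). Annexins, S100 proteins and galectins had 2 higher with the block, among them Lgals3bp (0.0141), and DNA replication had 1, Rrm2 (0.0251). Of 16 genes of the BCL2 family, Bid, a death agonist, was the 1 that passed. It was at 43.7, 48.4 and 52.3 CPM against 70.0, 66.5 and 71.0 CPM (0.52 ± 0.11, adjusted p = 0.0489). The call of Bid ended without any 1 isotype library (0.0789 to 0.203), without 5 of the anti-PD-1 libraries, all but positive library 2 (0.0589 to 0.0771), and with another scaling, edgeR's RLE factors (0.0540).

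**Figure D3:**
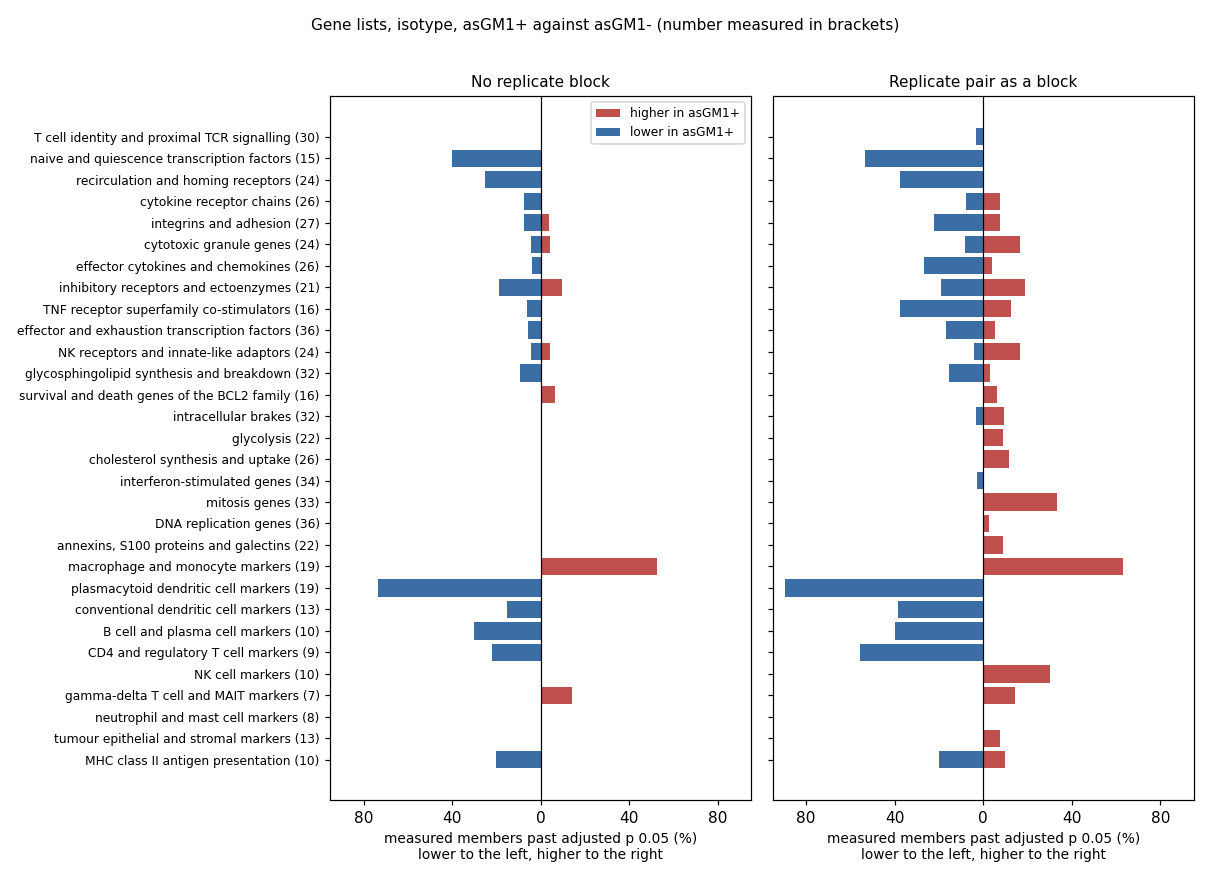
Share of each list's measured members that passed an adjusted p of 0.05 in the isotype comparison, in percent, with higher genes in red to the right and lower genes in blue to the left. The left panel has no replicate block and the right panel uses the replicate pair as a block; the plasmacytoid dendritic cell list (14 of 19 lower) and the macrophage list (10 of 19 higher) are the longest bars in both, and mitosis genes appear with the block alone (11 of 33).

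Stable genes outside every list included further lymphocyte genes, of which all but Cd83 were chosen after their values were seen. Cd83, a surface protein of activated lymphocytes and dendritic cells, was at 29.0, 39.5 and 39.4 CPM against 8.96, 11.6 and 7.54 CPM (-1.94 ± 0.28, adjusted p = 0.00741). Ripor2, an inhibitor of RHOA that is high in naive T cells, was at 31.2, 32.0 and 41.0 CPM against 14.1, 18.2 and 17.7 CPM (adjusted p = 0.00741). Nrp1, a co-receptor of regulatory T cells and plasmacytoid dendritic cells, was at 163, 173 and 225 CPM against 97.9, 80.6 and 110 CPM, and its call ended with only the 6 isotype libraries (adjusted p = 0.0104 and 0.0628). Cmah, the enzyme that turns one sialic acid, Neu5Ac, into Neu5Gc, was at 11.6, 11.6 and 12.8 CPM against 4.66, 5.21 and 5.13 CPM (-1.27 ± 0.17, adjusted p = 0.00442). Nfkbiz, a nuclear inhibitor of NF-kappaB, was at 44.6, 51.4 and 49.2 CPM against 23.4, 17.1 and 25.8 CPM (adjusted p = 0.00513). None of these 5 genes overlapped between the groups, which held for all 244 genes that passed and 16.3% of all tested genes. Dntt, the terminal transferase of lymphoid progenitors, was at 3.04, 1.35 and 2.38 CPM and had no count in any positive library (adjusted p = 0.00421).

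The same population contrast in the 6 anti-PD-1 libraries shares no library with the isotype contrast, although both use 1 estimate of the spread. Under anti-PD-1 295 genes passed (1.58%), 173 of them higher (0.927%) and 122 lower (0.654%), and 90 genes passed in both with the same direction, 19 higher and 71 lower. That was 36.9% of the isotype calls and 30.5% of the anti-PD-1 calls, and 0 passed in opposite directions. Of the 244 isotype genes 220 had the same sign under anti-PD-1 (90.2%), against 59.7% of all tested genes, and of the 62 stable genes 60 had the same sign and 42 passed. Without both anti-PD-1 libraries of replicate 2, in which the heat shock gene Hspa1a reached 151 and 146 CPM while the other 4 anti-PD-1 libraries had 22.5 to 32.6 CPM, 16 genes passed under anti-PD-1 and 169 under isotype. Hspa1a was at 188 to 355 CPM in the negative and 343 to 440 CPM in the positive isotype libraries, with overlap, and passed higher with the block alone (adjusted p = 0.0301).

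Siglech differed by -9.39 under isotype and -7.44 under anti-PD-1 on the log2 scale, Id3 by -2.27 and -2.79, and Apoe by 2.42 and 1.67, and these 3 passed under both. S1pr1 differed by -3.37 and -1.70 and passed under both. Btla, Cd244a and Satb1 did not pass under anti-PD-1, with log2 differences of -0.36, 0.23 and -0.24 (adjusted p = 0.747, 0.557 and 0.424). The difference between the contrasts was tested directly and 0 genes passed with edgeR, with 1329 at an unadjusted p under 0.05. By that test 0 passed with limma voom, 136 with DESeq2 and 5 with edgeR and the replicate block. One of the 5 was Cd160, with log2 differences of -1.08 under isotype and -0.10 under anti-PD-1 (adjusted p of their difference 0.438, and 0.0387 with the block). The interaction p of S1pr1 was 0.442, and 0.0809 with the block. Ifit3 and Ifit3b, which are interferon-induced, Pclaf, a replication factor, and Zdhhc14 were the other 4.

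**Figure D4:**
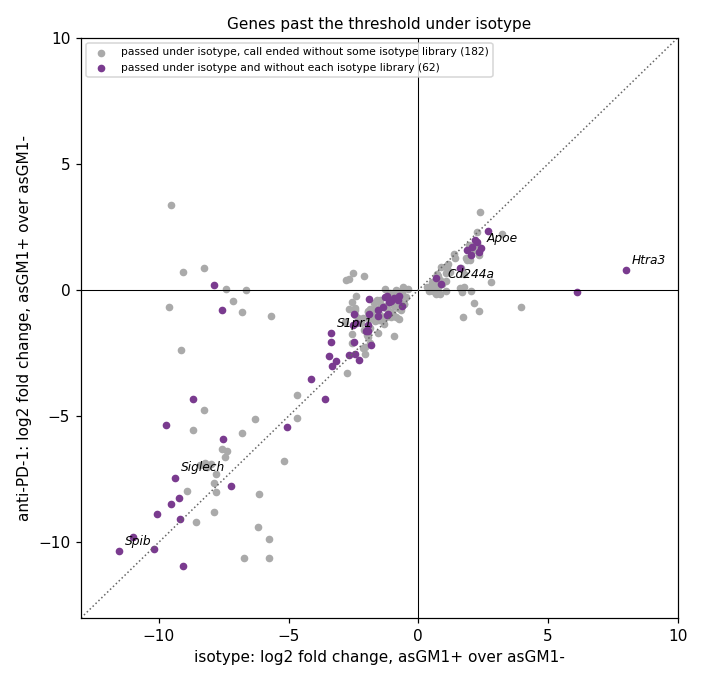
Log2 difference between asGM1-positive and asGM1-negative cells under isotype (horizontal) and under anti-PD-1 (vertical) for the 244 genes that passed under isotype; the 62 that also passed without each isotype library are purple and the dotted line marks equal values. Of the 244 points, 220 lie in the quadrants of equal sign. Points far from 0, such as Spib and Htra3, include genes without counts in 1 population, where the fitted value is not a bound.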

How the data were processed

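The labels' protocols give TRIzol and a TruSeq mRNA kit under extraction and a SMARTer low-input kit under library preparation. The submitters' processing notes list HISAT2, StringTie and mm39. For versions, settings and annotation, nothing was stated (not given in the sources used here). Whole-number counts per gene were deposited, 1 column a library. Whether reads were tallied or counts derived from StringTie's coverage, and whether strand was used, was not stated, so values of close paralogs and overlapping genes are uncertain.

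After edgeR's default filter by group and TMM scaling (0.972 to 1.04 in the isotype libraries), all 12 libraries entered 1 quasi-likelihood fit with a mean for each of 4 groups. The tools were R 4.3.3 with edgeR 4.0.16 and limma 3.58.1. Residual degrees of freedom were 8, prior ones 3.71, and the biological coefficient of variation was 0.336. The threshold was an adjusted p (Benjamini-Hochberg, over all genes) under 0.05, and adjusted p-values are edgeR's unless another tool is named. Each standard error is the size of the log2 difference over the square root of F. The script was tested on simulated data.

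Same-numbered libraries deviated together (correlations of 0.395, 0.472 and 0.605 over 10569 genes, against -0.415 to 0.0334 for other numbers). Deviations were taken from the mean of each group's 3 libraries. The values for other numbers are therefore tied to the same-numbered ones and are no separate baseline. The number was treated as a pair, and values with it as a block are given for part of the genes whose call they change. Named genes were up to 15 stable genes with the largest log2 difference in each direction (average log2 CPM 2 or more, neither predicted genes nor receptor segments), those 4 of each list whose p was smallest, and a set of T cell and glycolipid genes. Of 631 genes in 30 lists, 6 were found under another symbol and 603 were tested. Genes named outside this rule were chosen after their values were seen. The genes compared and the lists were chosen with earlier results of these data known. Alternatives were the block, RLE factors, no filter, DESeq2 1.42.0, limma voom, only 6 libraries, and each library left out. Leaving out both anti-PD-1 libraries of replicate 2 was chosen after seeing the data. The promoter sequences are from RefSeq, build GRCm38.p6, which is not the build of the counts. A few list members are not reported here.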

Additional observations from a re-analysis of the deposited data

How the results depend on the processing

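The isotype count of 244 genes became 736 with the replicate block, 582 with the block and only the 6 isotype libraries, 93 with only those 6 and no block, and 798 with DESeq2. It was 253 with RLE factors, 169 with no filter, 285 with limma voom and 75 to 230 with 1 of the 12 libraries left out. The lowest value came without negative library 1. The count also moved by over 1.5 times without negative library 2 (122) or 3 (107), without positive library 1 (149), 2 (158) or 3 (160), and without anti-PD-1 negative library 3 (155). Under anti-PD-1 the count of 295 became 891 with the block, 853 with DESeq2, 49 to 354 with 1 library left out and 16 without both anti-PD-1 libraries of replicate 2. The interaction count of 0 became 5 with the block and 136 with DESeq2, and stayed at 0 with each library left out. The cause of these moves was not tested. The called genes named here kept their direction in every setting run. For the other called genes direction was not compared across settings.

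Of the named genes, Bid, Cd79b, Csf1r, Cxcr4, Fcrla, Flt3, Foxo1, H2-Ob, Itgb5, Lef1, Trgc2 and Zbtb46 did not pass with no filter (adjusted p 0.0521 to 0.0845). Bach2, Bid, Csf1r, Cxcr4, Fcrla, Flt3, Foxo1, Gpr18, Gzmb, H2-Ob, Itgb5, Lef1, Runx2, St3gal1, St3gal2 and Trgc2 did not pass without both anti-PD-1 libraries of replicate 2 (0.0507 to 0.102). With only the 6 isotype libraries, Bach2, Bid, Btla, Ccr9, Cd244a, Csf1r, Ctsl, Cxcr4, Epdr1, Fcrla, Flt3, Foxo1, Gpr18, Gzmb, H2-Ob, Htra3, Il18rap, Itgb3, Klra7, Lad1, Lef1, Mzb1, Nrp1, Runx2, Satb1, Serpinb6b, Slamf6, St3gal1, St3gal2, St6galnac3, Tnfrsf4 and Trgc2 did not pass (0.0513 to 0.229). With the block and only those 6, Cxcr4, Htra3 and St3gal1 did not pass (0.0518 to 0.0813), and under limma voom H2-Ob, Lef1 and Zdhhc14 did not (0.0586 to 0.257). Of the 62 stable genes, 48 passed in every setting run. The replicate block with 12 libraries ended no call of a named gene. With 3 libraries a group, genes under 1 CPM rest on few counts.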

Other observations

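Among the genes that passed and were chosen after their values were seen were a few of growth and signalling. Ccnd2, which encodes the D-type cyclin of lymphocyte cell cycle entry, was at 475, 398 and 404 CPM in the negative and 271, 166 and 164 CPM in the positive libraries (log2 difference -1.09 ± 0.17, edgeR adjusted p = 0.00975). Its call ended without negative library 1 (0.0516) and with only the 6 isotype libraries (0.0823). Kit, the stem cell factor receptor, was at 58.8, 48.5 and 68.2 CPM against 19.0, 14.7 and 26.1 CPM (adjusted p = 0.0154). The call of Kit ended without negative library 1 or 3 or positive library 1 or 2 (0.0510 to 0.0584). Lat2, an adaptor of immune receptor signalling in B, NK and myeloid cells, was at 123, 160 and 119 CPM against 252, 296 and 200.3 CPM (adjusted p = 0.0163). It did not pass without negative library 1 or 3 or positive library 2 (0.0543 to 0.0837), nor with only the 6 isotype libraries (0.0962).

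Mast cell protease genes were high in 1 of the 6 isotype libraries. Tpsb2 was at 22.4 CPM in positive library 3 and had no count in the other 5, and Cpa3 was at 3.04 CPM there and at 0.172 CPM or less in the others. Fibroblast genes were highest in positive library 1, where Sparc, a matrix glycoprotein gene, was at 20.3 CPM against 3.83 and 3.54 CPM in the other positive libraries, and Col3a1, a collagen gene, at 8.02 CPM against 0.861 and 1.28 CPM. In the negative libraries Sparc was at 2.31, 1.65 and 1.165 CPM, under every positive library, and Col3a1 at 1.045, 0.132 and 0.555 CPM. None of these 4 genes passed without the block (edgeR adjusted p from 0.145 to 0.425). With the replicate block Sparc passed, higher in all 3 pairs (0.0316), and the other 3 did not (0.0811 to 0.500). Of 13 measured tumour epithelial and stromal markers, 10 were above 0, with a median log2 difference of 2.19. Their sums were 88.9 to 106.5 CPM against 124.3 to 149.7 CPM, and 0 passed without the block. Krt8, of the same list, was at 0.918, 0.0825 and 0.257 CPM against 2.53, 2.51 and 1.76 CPM (edgeR adjusted p = 0.194).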
